A study of Mus musculus with 10 samples.

Results

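The ERBB receptors and the EGF-family ligands were examined in mouse tracheal epithelial organoids. The genes were chosen by name: the receptors Egfr, Erbb2 and Erbb3 and the ligands Areg, Ereg, Hbegf, Tgfa, Btc, Epgn and Nrg1. All 10 had a row among the 22457 genes of the count table, and 9 passed the filter on low counts (3 of 3 receptors and 6 of 7 ligands). Epgn did not pass. Organoids were grown from tracheal basal cells, the stem cells of the airway lining, of control mice (Ctrl) or of M3-CKO mice, which carry a knockout of Mettl3 per the series title. METTL3 catalyses the addition of N6-methyladenosine (m6A) to mRNA. RNA-seq covered 3 Ctrl and 3 M3-CKO libraries, harvested on day 14. A further 4 libraries from m6A immunoprecipitation and its input were not analysed here. The labels name neither the strain and age of the mice, nor the driver of the deletion, nor the deleted part of Mettl3. They also leave unsaid whether a replicate is its own animal or culture, and the spread behind each p-value is that between these libraries, which may be technical.

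All groups were cultured with added EGF. Per the labels' protocols the expansion medium (MTEC/Plus) held 25 ng/ml EGF and 100 ng/ml cholera toxin, an agent that raises cyclic AMP. It also held A83-01 and DMH-1, inhibitors of TGF-beta and BMP receptors. The differentiation medium (MTEC/SF) held 5 ng/ml EGF and 25 ng/ml cholera toxin. Both media held bovine pituitary extract and retinoic acid. The labels do not tie either medium to the day of harvest. Every level below was therefore measured with ligand supplied from outside in both groups.

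ERBB receptors are tyrosine kinases of the cell surface that signal as pairs. Areg, Ereg, Hbegf, Tgfa, Btc and Epgn bind EGFR, and Nrg1 binds ERBB3 and ERBB4. The ligands are made as membrane-anchored precursors, and metalloproteases of the ADAM family cut them free. Activated receptors signal through RAS and ERK and through PI3K and AKT, and ERK signalling is known to induce several ligands as well as its own inhibitors. In the airway lining, EGFR and its ligands are known for their part in epithelial repair, and NRG1 with ERBB2 and ERBB3 for repair after injury.

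Total counts ran from 8906375 to 10485922 per library. Levels are given as CPM, counts scaled to library size with TMM factors. The level of Mettl3 was 16.9 ± 1.96 CPM for Ctrl and 10.4 ± 0.632 for M3-CKO (SD, n = 3 each). Its log2 fold change was -0.70 (SE 0.21, adjusted p = 0.122, edgeR), and the M3-CKO libraries all lay below the Ctrl libraries. Mettl3 passed the test without M3-CKO replicate 3, described next (-0.67, adjusted p = 0.0426), and with DESeq2 (adjusted p = 0.0488). M3-CKO replicate 3 stood apart from the rest of its group. Across genes its log2 CPM correlated with M3-CKO replicates 1 and 2 at r = 0.919 and 0.908, against 0.985 between those replicates. With Ctrl replicates 1, 2 and 3 it correlated at r = 0.922, 0.925 and 0.919. The members' fold changes and the pathway counts are therefore also given without M3-CKO replicate 3. All 6 epithelial markers looked up (Epcam, Cdh1, Krt8, Krt18, Cldn4 and Cldn7) had counts, with sums from 2683 to 3998 CPM in Ctrl and from 2848 to 5456 in M3-CKO. The 9 basal cell markers summed to between 2402 and 2826 CPM in Ctrl and between 1401 and 1438 in M3-CKO. Of markers of other tissues, 4 of 8 mesenchymal, 3 of 6 endothelial and 4 of 7 immune genes had a row, with sums of at most 12.7, 1.14 and 99.96 CPM. In bulk RNA, fewer cells of a type and less RNA per cell cannot be told apart.

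No receptor or ligand gene passed the test between M3-CKO and Ctrl. edgeR's quasi-likelihood test with Benjamini-Hochberg adjustment called 0 of 9 at an adjusted p under 0.05, where it called 2.91% of all 13528 genes tested. At an unadjusted p under 0.05 it also found 0 of 9, against 20.5% of all genes. DESeq2 called 0 of 9, where it called 1402 of the 13528 genes. At an unadjusted p under 0.05 DESeq2 found 1 of 9, and 2924 of the 13528 genes. The groups overlapped for all 9, whereas they did not overlap for 27.1% of all genes. The log2 fold changes were positive for 4 and negative for 5, with a median of -0.01 beside 0.02 over all genes. The count was also 0 of 9 without M3-CKO replicate 3, a setting in which edgeR called 25% of all genes. The intervals below show which sizes of change these libraries leave possible.

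For each of the 3 receptors the M3-CKO mean lay within 1.17 times of its own Ctrl mean. Egfr, the receptor for EGF and most of the ligands here, had levels of 162.3, 126.1 and 108.8 CPM in Ctrl replicates 1 to 3, and of 137.4, 132.4 and 102.7 in M3-CKO replicates 1 to 3. The highest library was a Ctrl and the lowest an M3-CKO, with the others mixed between them. Its log2 fold change was -0.09 (SE 0.20, adjusted p = 0.84). The 95% interval ran from 0.682-fold to 1.29-fold of the Ctrl level, and the log2 fold change was 0.022 without M3-CKO replicate 3 (adjusted p = 0.935).

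Erbb2, the receptor without a known ligand of its own that serves as partner to the others, stood at 248.6, 222.2 and 215.2 CPM in Ctrl and at 242.1, 220.9 and 280.0 in M3-CKO. It was the only receptor whose level in M3-CKO replicate 3 lay above those of M3-CKO replicates 1 and 2. It differed by 0.12 on the log2 scale (SE 0.15, adjusted p = 0.733), with an interval from 0.844-fold to 1.39-fold, and by 0.014 without M3-CKO replicate 3 (adjusted p = 0.945).

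Erbb3, the neuregulin receptor whose kinase is nearly inactive and which relays to PI3K, stood at 229.0, 182.8 and 203.1 CPM in Ctrl. In M3-CKO it stood at 255.6, 254.1 and 208.0 CPM. M3-CKO replicates 1 and 2 lay above all Ctrl libraries, and replicate 3 fell within the Ctrl range. The difference was 0.22 on the log2 scale (SE 0.16, adjusted p = 0.487, interval 0.901-fold to 1.51-fold). Without M3-CKO replicate 3 it was 0.31 (unadjusted p = 0.0398, adjusted p = 0.11). For all 3 receptors the interval leaves out a change of 2-fold in either direction.

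**Figure D1:**
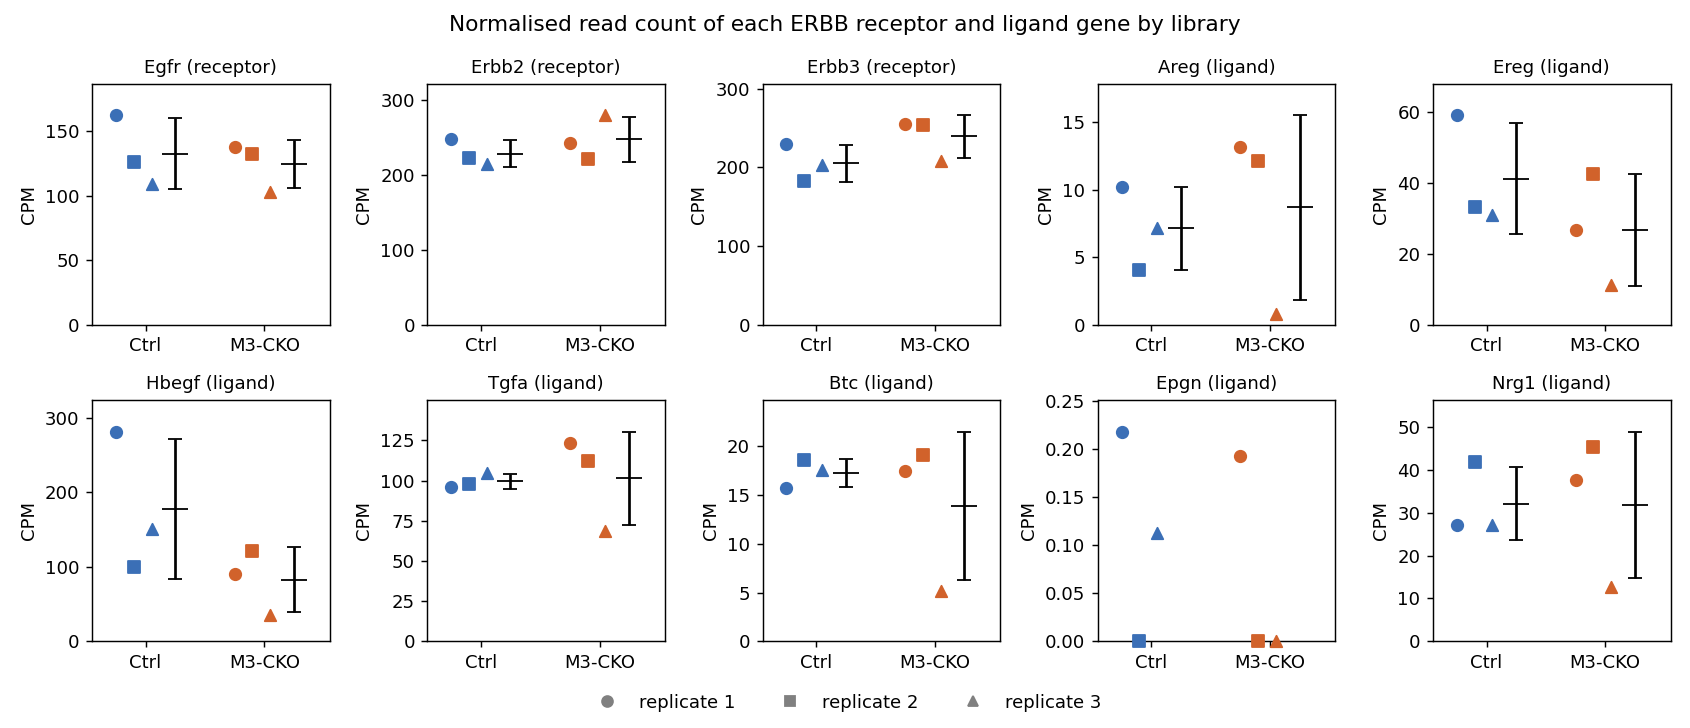
CPM (vertical axes, from 0, a scale for each gene) of the 10 genes in each library, with Ctrl in blue and M3-CKO in orange; marker shapes give the replicate number and black bars the mean ± SD of 3 libraries, left out for Epgn, which was not tested. The groups overlap in every panel, and the M3-CKO replicate 3 triangle is the lowest point for Areg, Ereg, Hbegf, Tgfa, Btc and Nrg1.

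Within M3-CKO the ligands varied more between libraries than the receptors did. The SD there was between 28.6% of the mean (Tgfa) and 78.7% (Areg) for the 6 tested ligands, and between 11.3% and 15.1% for the receptors. Within Ctrl it ranged from 4.72% (Tgfa) to 52.9% (Hbegf) for the ligands and from 7.71% to 20.6% for the receptors, so the ranges overlapped. In M3-CKO, replicate 3 was the lowest library for all 6 tested ligands. M3-CKO replicates 1 and 2 lay close for Areg (13.1 and 12.1 CPM) and Btc (17.5 and 19.1), less so for Ereg (26.6 and 42.4).

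Areg, amphiregulin, had levels of 10.2, 4.02 and 7.19 CPM in Ctrl replicates 1 to 3, from 93, 38 and 64 counts. In M3-CKO replicates 1 to 3 it stood at 13.1, 12.1 and 0.814 CPM, from 136, 106 and 8 counts. M3-CKO thus held the highest and the lowest libraries. Its estimated log2 fold change was 0.29 (SE 0.81, adjusted p = 0.884), with an interval from 0.331-fold to 4.48-fold, so that changes of 2-fold in either direction lie within it. Without M3-CKO replicate 3 it was 0.82 (adjusted p = 0.127).

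Areg, Ereg, Btc and Epgn are consecutive protein-coding genes on mouse chromosome 5, in the order Epgn, Ereg, Areg, Btc (RefSeq, GRCm38.p6, used for the order of neighbours). Areg, Ereg and Btc were all lowest in the same library, M3-CKO replicate 3. The other tested ligands, Hbegf, Tgfa and Nrg1, lie outside this run of neighbours and were lowest there too. A low level in that library was thus not particular to the neighbours. The bases before the start site were compared for members with a matched promoter entry. RefSeq entries were matched by symbol for 6 of the 10 genes: Areg, Btc, Egfr, Epgn, Erbb2 and Tgfa. Entries on a chromosome set aside in this match were not used, so an unmatched gene may still have an entry. The 250 bases upstream of the start were searched on both strands for the cyclic AMP response element TGACGTCA, the AP-1 site TGACTCA, the ETS site CCGGAAG and the TATA box TATAAA. The matches found do not overlap each other and are in capitals. Areg and Btc are shown as neighbours that were low together, and Tgfa, on chromosome 6, as the ligand that varied least (chr5:91139349-91139598 on the + strand, chr5:91402995-91403244 on the - strand and chr6:86194972-86195221 on the + strand, GRCm38.p6).
Areg: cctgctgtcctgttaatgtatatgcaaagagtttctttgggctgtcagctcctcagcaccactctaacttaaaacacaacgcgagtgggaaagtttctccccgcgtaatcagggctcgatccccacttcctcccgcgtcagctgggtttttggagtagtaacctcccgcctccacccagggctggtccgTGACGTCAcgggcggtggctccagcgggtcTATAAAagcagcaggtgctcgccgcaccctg
Btc: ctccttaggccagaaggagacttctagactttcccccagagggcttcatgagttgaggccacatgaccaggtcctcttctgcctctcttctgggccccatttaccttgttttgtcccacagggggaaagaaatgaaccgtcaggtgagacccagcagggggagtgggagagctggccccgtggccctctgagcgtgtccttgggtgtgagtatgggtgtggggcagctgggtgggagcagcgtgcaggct
Tgfa: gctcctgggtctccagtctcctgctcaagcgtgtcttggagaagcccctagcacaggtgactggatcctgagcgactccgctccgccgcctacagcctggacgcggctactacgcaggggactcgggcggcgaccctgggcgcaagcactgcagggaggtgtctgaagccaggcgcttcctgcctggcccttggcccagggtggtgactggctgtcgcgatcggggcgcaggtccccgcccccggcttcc
The Areg stretch holds a TGACGTCA that begins 61 bases before the start and a TATAAA that begins 31 bases before it. Of 32851 mouse promoter stretches of the same length, 1.55% hold TGACGTCA and 12.4% hold TATAAA. The stretches of Btc and Tgfa hold none of the motifs searched. Of the other matched genes, Epgn has a TATAAA (86 bases before the start) and Egfr an ETS match on the opposite strand, at 120 bases, a motif that 6.91% of stretches hold. No AP-1 letters were found in the 6 stretches, against 4.46% of all stretches. A match is a description of letters and shows no binding.

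Ereg, epiregulin, stood at 59.1, 33.3 and 31.0 CPM in Ctrl and at 26.6, 42.4 and 11.1 in M3-CKO. The highest library was Ctrl replicate 1 and the lowest M3-CKO replicate 3, while M3-CKO replicate 2 lay above Ctrl replicates 2 and 3. Its log2 fold change was -0.63 (SE 0.47, adjusted p = 0.505, interval 0.305-fold to 1.38-fold), and -0.26 without M3-CKO replicate 3.

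Hbegf, the heparin-binding EGF-like ligand, had the lowest p of the ligands. It stood at 281.3, 99.7 and 150.3 CPM in Ctrl and at 90.9, 121.6 and 35.5 in M3-CKO. M3-CKO replicate 2 lay above Ctrl replicate 2, so the groups overlapped although M3-CKO averaged 46.7% of the Ctrl level. Its difference was -1.10 on the log2 scale (SE 0.50, unadjusted p = 0.0611, adjusted p = 0.272), with an interval from 0.208-fold to 1.05-fold. Equal levels lie just inside that interval. It was -0.74 without M3-CKO replicate 3 (adjusted p = 0.188), and its adjusted p was between 0.151 and 0.61 over the 13 alternatives.

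Tgfa, transforming growth factor alpha, stood at 96.1, 97.7 and 104.9 CPM in the Ctrl libraries, the smallest spread of any tested ligand relative to its mean. In M3-CKO it stood at 123.5, 112.2 and 68.6 CPM, so that replicates 1 and 2 lay above every Ctrl library and replicate 3 below every one. On the log2 scale the difference was 0.03 (SE 0.22, adjusted p = 0.962, interval 0.710-fold to 1.46-fold), and 0.24 without M3-CKO replicate 3 (adjusted p = 0.154).

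Btc, betacellulin, stood at 15.7, 18.6 and 17.5 CPM in Ctrl and at 17.5, 19.1 and 5.19 in M3-CKO. Of the 6 libraries 5 lay within 15.7 to 19.1 CPM, and M3-CKO replicate 3 alone stood below. Over all libraries the log2 fold change was -0.31 (SE 0.44, adjusted p = 0.743, interval 0.396-fold to 1.63-fold), and 0.07 without that library.

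Nrg1, neuregulin 1, the ligand of ERBB3 and ERBB4, stood at 27.3, 42.0 and 27.3 CPM in Ctrl and at 37.7, 45.4 and 12.7 in M3-CKO. M3-CKO held both the highest and the lowest library. Its log2 fold change was -0.01 (SE 0.44, adjusted p = 0.991, interval 0.491-fold to 2.00-fold), and 0.36 without M3-CKO replicate 3 (adjusted p = 0.257). Epgn, epigen, had 2, 0 and 1 counts in Ctrl and 2, 0 and 0 in M3-CKO. These lie below the floor of 3 counts per library, so no fold is given. The floor corresponds to between 0.290 and 0.342 CPM.

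**Figure D2:**
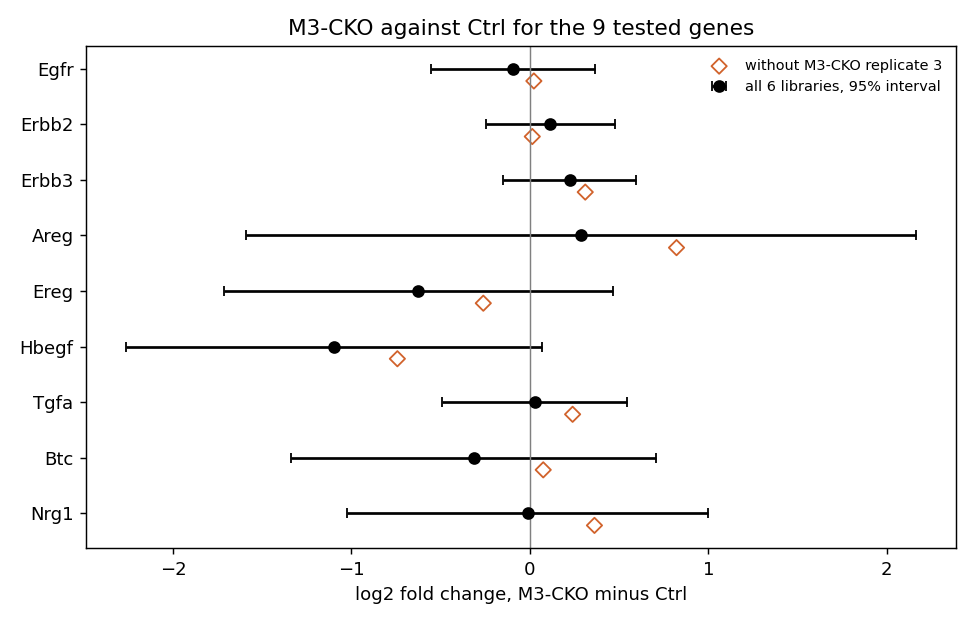
Log2 fold change of M3-CKO over Ctrl (horizontal axis) for the 9 tested genes; black points with bars give the edgeR estimate and its 95% interval over all 6 libraries, and orange diamonds the estimate without M3-CKO replicate 3. Every interval spans 0, the receptors have the narrowest, and Areg has the widest, from -1.59 to 2.16.

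The 6 tested ligands shared their lowest library. In M3-CKO replicate 3 each of them was at its lowest level of all 6 libraries, as were 25.9% of all tested genes. In 5 of the 6 the level was at least 2-fold below the mean of M3-CKO replicates 1 and 2, against 13.6% of all genes, and in 0 of the 6 it was at least 2-fold above, against 10.1%. This comparison sets 1 library against 2 and has no test, and it was chosen after the values were seen. The level relative to pooled replicates 1 and 2 was 0.0643 for Areg (exact 95% interval 0.0274 to 0.129, counting error only). It was 0.285 for Btc (0.208 to 0.383), 0.308 for Nrg1 (0.253 to 0.373), 0.328 for Ereg (0.265 to 0.402) and 0.338 for Hbegf (0.301 to 0.379). Tgfa was less low, at 0.579 (0.531 to 0.632). Of the receptors Egfr stood at 0.760 and Erbb3 at 0.816, while Erbb2 stood at 1.20.

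Cell type markers also differed in M3-CKO replicate 3. The 6 club cell markers summed to 5020 CPM there, against 1892 and 1382 in M3-CKO replicates 1 and 2 and 3100 to 3571 in Ctrl. Of these 6, edgeR called 1 higher in M3-CKO than in Ctrl (Scgb1a1, log2 fold change 5.23, adjusted p = 0.0333) and 0 lower. The sum thus does not give the direction of each club marker. The 6 epithelial markers summed to 2848 CPM, against 5236 and 5456. The 6 goblet cell markers summed to 420.6 CPM, against 1055 and 544.1 in M3-CKO replicates 1 and 2 and 95.8 to 193.3 in Ctrl, and the 7 ciliated cell markers to 49.7 CPM, against 97.5 and 70.6 and 17.5 to 55.7 in Ctrl. The 4 of 7 immune markers with a row summed to 38.6 CPM, against 85.7 and 99.96 and 63.3 to 91.3 in Ctrl. The basal cell markers did not set it apart, at 1412 CPM against 1438 and 1401, nor did the 6 of 7 hillock and squamous markers with a row, at 307.1 CPM against 303.6 and 282.5. No marker with a row was at 0 in all libraries. The part of these markers in the ligand levels was not tested.

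Ctrl replicate 1 was the highest Ctrl library for 3 ligands. Hbegf, Ereg and Areg were there 2.25, 1.84 and 1.81 times the mean of Ctrl replicates 2 and 3, and 6.73% of all tested genes were at least 1.5 times higher in that library. Tgfa (0.949), Btc (0.870) and Nrg1 (0.788) were not. Among pathway genes the same library was high for Dusp5, a phosphatase that acts on ERK (6.54 times), for Errfi1, which inhibits EGFR (4.11 times), for Myc (3.27 times) and for the feedback inhibitor Spry1 (2.07 times). These 4 genes were chosen after their values were seen. Of all 72 tested pathway genes 6.94% were at least 1.5 times higher in that library, a share close to that of all genes. In M3-CKO replicate 3, Dusp5, Errfi1 and Myc stood at 0.203, 0.247 and 0.321 of the mean of replicates 1 and 2, and Spry1 at 0.541. For Hbegf and Ereg the highest and the lowest of the 6 levels thus each came from 1 library, in different groups, whereas for Areg M3-CKO replicates 1 and 2 lay above Ctrl replicate 1.

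**Figure D3:**
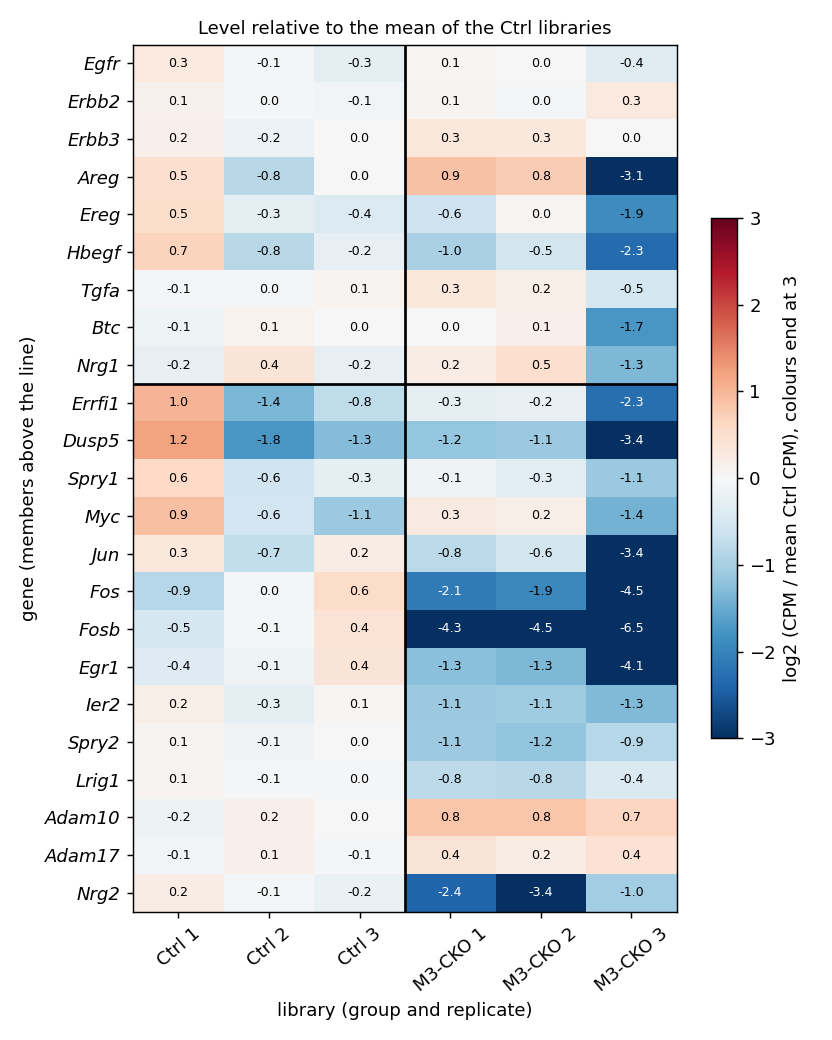
Log2 of the CPM in each library (columns, group and replicate) over the mean CPM of the 3 Ctrl libraries, for the 9 tested receptor and ligand genes above the line and 14 pathway genes below it, some of them chosen after their values were seen; red is higher, blue lower, and colours end at 3 in either direction. Blue in the last column runs through 6 of 6 ligands, and Hbegf is blue in all 3 M3-CKO columns. Below the line, Fosb, Ier2, Spry2, Fos, Egr1, Jun, Dusp5, Errfi1, Spry1, Lrig1 and Nrg2 are blue in all 3 M3-CKO columns. Adam10 and Adam17 are red in all 3, and Myc is mixed.

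The rest of the pathway was read from 7 lists with 79 genes, of which 77 had a row and 72 were tested. In all, 1 gene rose and 3 fell, against 1.74% and 1.16% of all genes, and the median log2 fold change was -0.05 beside 0.02 over all genes. An unadjusted p under 0.05 (edgeR) was found for 21 of the 72, against 20.5% of all genes. DESeq2 called 4 higher and 8 lower, where it called 819 and 583 of all 13528 genes. Without M3-CKO replicate 3 edgeR called 16 higher and 12 lower, where 13.7% and 11.3% of all genes were called. Each of the 4 edgeR calls was lost when any 1 of the other 5 libraries was left out in turn, and none was lost without M3-CKO replicate 3. In those 5 settings edgeR called only 0 to 18 of all genes, so the loss was not particular to these 4.

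Of the family genes outside the 10, Egf, Nrg2 and Nrg4 had a row, and Erbb4 and Nrg3 had none. Nrg2, another neuregulin, stood at 31.8, 26.2 and 23.5 CPM in Ctrl and at 5.12, 2.62 and 13.1 in M3-CKO. All M3-CKO libraries lay below all Ctrl libraries. On the log2 scale it differed by -1.96 (SE 0.52), which edgeR did not call (adjusted p = 0.0887). It passed with DESeq2 (adjusted p = 0.0033) and without M3-CKO replicate 3 (-2.79, adjusted p = 9.37e-04), the library in which Nrg2 was 3.39 times the mean of the other M3-CKO libraries, against the direction of Nrg1. Nrg4 had a log2 fold change of -0.07 (adjusted p = 0.959), and Egf, with 0 to 9 counts per library, was not tested.

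Among the 9 tested genes of ligand shedding and trafficking, Adam10 rose and 0 fell, against 1.74% and 1.16% of all genes. The median was 0.21. Without M3-CKO replicate 3, 2 were called higher and 0 lower, against 13.7% and 11.3% of all genes. Adam10 is a protease known to release betacellulin and EGF. It stood at 212.2, 265.7 and 234.3 CPM in Ctrl and at 420.3, 420.7 and 373.3 in M3-CKO, so that all M3-CKO libraries lay well above all Ctrl libraries. Its log2 fold change was 0.77 (SE 0.15, adjusted p = 0.047), and the adjusted p with any 1 of those 5 libraries left out was 0.14 to 0.214. Adam17, the main protease for amphiregulin, TGF-alpha and HB-EGF, stood at 110.5, 129.6 and 111.9 CPM in Ctrl and at 154.2, 137.7 and 158.0 in M3-CKO. Its difference of 0.35 on the log2 scale (SE 0.14, adjusted p = 0.216) was not called. Adam17 was picked after seeing its values, and the difference between the proteases was not tested.

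Among 14 genes of receptor inhibition and degradation edgeR called 0, against 2.91% of all genes. An unadjusted p under 0.05 was found for 3, against 20.5% of all genes. DESeq2 called 1 higher and 1 lower, where it called 819 and 583 of all 13528 genes. The median was 0.02. Those with the lowest p were Lrig1 and Stam. Lrig1, a membrane protein that promotes the loss of ERBB receptors, stood at 295.7, 264.6 and 271.4 CPM in Ctrl and at 160.4, 156.0 and 205.0 in M3-CKO. The groups did not overlap, and the log2 fold change was -0.67 (SE 0.16, adjusted p = 0.0694; 0.00246 without M3-CKO replicate 3). Stam, part of the sorting complex for endocytosed receptors, differed by 0.57 on the log2 scale (SE 0.14, adjusted p = 0.0708; 0.0131 without M3-CKO replicate 3). In that setting 5 genes of the list were called higher and 1 lower, against 13.7% and 11.3% of all genes.

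No relay gene was called by edgeR, against 2.91% of all genes. Of 18 adaptors and RAS, RAF, MEK and ERK genes 0 were called by edgeR or DESeq2 and 1 had an unadjusted p under 0.05, with a median of -0.13. Sos1, a RAS activator, stood at 0.48 (SE 0.22, adjusted p = 0.274). Leaving out M3-CKO replicate 3 gave 0.70 (adjusted p = 0.00352), and in that setting 3 genes of the list were called higher and 2 lower. Of 9 PI3K and AKT genes 0 were called by edgeR, 2 reached an unadjusted p under 0.05 and 1 was called lower by DESeq2, with a median of -0.01. Pik3r1, a regulatory subunit of PI3K, stood at -0.71 (SE 0.21, adjusted p = 0.12; 0.0194 with M3-CKO replicate 3 left out) and Pdpk1, the kinase that activates AKT, at -0.49 (SE 0.16, adjusted p = 0.147; 0.056 without it). In that setting 0 genes of the list were called higher and 2 lower, where 13.7% and 11.3% of all genes were called. An unadjusted p under 0.05 (edgeR, all 6 libraries) was found for 20.5% of all genes.

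Of 10 ERK feedback genes 1 fell and 0 rose, against 1.16% and 1.74% of all genes. An unadjusted p under 0.05 was found for 5, against 20.5% of all genes, and the median was -0.02. Spry2, an inhibitor of receptor tyrosine kinase signalling, fell from 123.5, 109.4 and 118.3 CPM in Ctrl to 55.4, 51.2 and 64.3 in M3-CKO. The spread within each group was small beside the gap, and the log2 fold change was -1.04 (SE 0.15, adjusted p = 0.0257; 0.0946 to 0.141 with 1 of the 5 left out). Dusp6, an ERK phosphatase often read as a measure of ERK activity, differed by 0.32 on the log2 scale (SE 0.18, adjusted p = 0.383) and was picked after seeing its values. Spry2 and Dusp6 thus had estimates of opposite sign. With M3-CKO replicate 3 left out, 3 genes of the list were called higher and 2 lower, against 13.7% and 11.3% of all genes.

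Of 10 tested transcription factor genes known to respond to ERK, 2 fell and 0 rose, against 1.16% and 1.74% of all genes. An unadjusted p under 0.05 was found for 6, against 20.5% of all genes, and the median was -0.65. Ier2, an immediate early gene, fell from 280.9, 204.9 and 256.9 CPM in Ctrl to 114.9, 118.4 and 98.3 in M3-CKO (log2 fold change -1.16, SE 0.17, adjusted p = 0.0275; 0.0922 to 0.141 with 1 of the 5 left out). Fosb fell by 4.79 on the log2 scale (SE 0.54, adjusted p = 0.0163; 0.065 to 0.0932 with 1 of the 5 left out). Of the members not called, Fos and Egr1 had negative estimates of -2.49 (adjusted p = 0.082) and -1.78 (adjusted p = 0.163), and Etv4 and Ier3 positive ones of 1.23 (adjusted p = 0.0544) and 0.92 (adjusted p = 0.17). These 4 had the lowest p after the called genes and were chosen after their values were seen. All 4 were called in these directions without M3-CKO replicate 3, with adjusted p of 0.00613, 0.00466, 0.00286 and 0.00129. In that setting 3 genes of the list were higher and 4 lower, against 13.7% and 11.3% of all genes. Of the 10, 7 were at least 2-fold lower in M3-CKO replicate 3 than in the mean of replicates 1 and 2, against 13.6% of all genes. This list and the ligands were thus low in the same library. Ier2, at 0.842 of that mean, was not among the 7, and Spry2 of the feedback list stood at 1.21. For both genes all M3-CKO libraries lay below all Ctrl libraries.

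**Figure D4:**
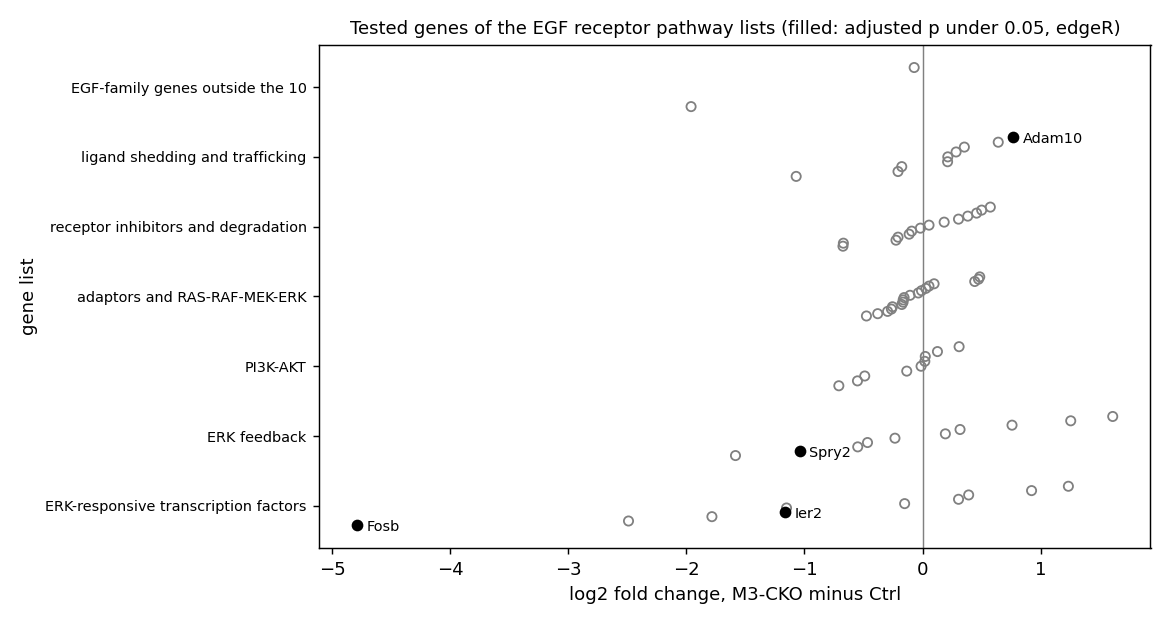
Log2 fold change of M3-CKO over Ctrl (horizontal axis) for the 72 tested genes of the 7 pathway lists (vertical axis), 1 point a gene, sorted within each list; filled and named points passed the edgeR test at an adjusted p under 0.05. The 4 filled points are Adam10, at 0.77, and Spry2, Ier2 and Fosb, at -1.04, -1.16 and -4.79.

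The genes whose levels followed a member most closely over the 6 libraries were taken for the receptor and the ligand with the lowest p, among 9642 other genes with a mean of at least 10 CPM. For Erbb3 these were Kdm5b, Cldn4 and Eif4ebp1, with Pearson r of log2 CPM of 0.998, 0.996 and 0.995. Cldn4, a tight junction gene, reached 778.4 ± 380.8 CPM in Ctrl against 1725 ± 804.2 in M3-CKO, a far larger spread than that of Erbb3. For Hbegf they were Tpm2, Boc and Klf9, at r of 0.997, 0.995 and 0.992. With 6 libraries and this many genes, values of r this near 1 describe likeness in these libraries only.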

How the data were processed

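Members and gene lists were chosen with earlier results of these data known. The deposited table holds raw whole-number read counts of each gene. The submitters' processing notes list HISAT2, featureCounts and Trim Galore and the build mm39, without versions. Neither the annotation, the strand setting nor the handling of reads with several matches is given there. Columns were matched to samples by name. No length was given, so levels are not compared between genes. Counts were fitted with edgeR 4.0.16 (R 4.3.3): filterByExpr, TMM, glmQLFit and glmQLFTest, group as the only term, two-sided, Benjamini-Hochberg over 13528 genes. The standard error (SE) is the fold change over the square root of F, and 95% intervals use the fit's total degrees of freedom. Pairs of replicates differed by more than counting noise (chi-square per degree of freedom at least 5.79). On simulated counts of this comparison (13259 genes tested), 28% of 2-fold, 84% of 4-fold, 100% of 8-fold and 100% of 16-fold changes were recovered, with 7.14% of calls false. Changes were put only into genes above a minimum mean CPM, and no simulated library stood apart as M3-CKO replicate 3 did. Recovery for genes of lower level, or under such a library, was not measured. Named genes are the 10 members, Mettl3, the called genes of each list or else its 2 lowest p, and the 3 genes most like the receptor and the ligand of lowest p; others are marked, and 1 gene the rule picks is not reported here. Alternatives used DESeq2 1.42.0 and limma 3.58.1.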

Additional observations from a re-analysis of the deposited data

How the results depend on the processing

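No receptor or ligand gene was called under any of the 13 alternatives, which were scaling by DESeq2 size factors or by library size, testing with DESeq2 or limma-voom, omitting or tightening the filter on low counts, the replicate block and leaving out each library. Some estimates changed sign: with limma-voom Areg was -0.38, against 0.29 in the main fit, and Tgfa -0.018, against 0.03. Leaving out 1 library gave -0.22 to 0.084 for Egfr, -0.15 to 0.82 for Areg, -0.14 to 0.24 for Tgfa, -0.59 to 0.075 for Btc and -0.34 to 0.36 for Nrg1, all on the log2 scale. Calls over all genes (236 higher, 157 lower) were 819 and 583 with DESeq2 and 456 and 284 without a filter, and ranged from 0 to 1913 and from 0 to 1570 when 1 library was left out. Pathway calls (1 higher, 3 lower) were 4 and 8 with DESeq2 and 2 and 5 without a filter, and ranged from 0 to 16 and from 0 to 12 with 1 library left out. The highest of each came without M3-CKO replicate 3. The cause was not tested.

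With the replicate number as a block (replicate block), 12 genes were called higher and 8 lower, with 0 and 0 in the pathway lists (adjusted p 0.132 for Adam10, 0.079 for Spry2, 0.0839 for Ier2 and 0.0663 for Fosb), and the estimates were -0.13 for Areg and -0.015 for Tgfa. The labels do not say whether the numbers pair the libraries. Deviations of same-numbered libraries correlated at -0.037, 0.020 and -0.13, and 0 of 6 libraries correlated best with its own number. With 3 libraries in each group, and M3-CKO replicate 3 apart from the others, these values cannot decide it. At 28% recovery of 2-fold changes, moderate changes of single genes can be missed, and the counts of Areg (8 in 1 library) and Epgn limit those genes most.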
